A study of Mus musculus with 22 samples.

Results

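Cells make cholesterol from acetyl-CoA along a chain of enzymes that runs through mevalonate, the isoprenoid diphosphates, squalene and lanosterol. The genes of this chain are switched together by SREBP2, a membrane-bound transcription factor that is held in the endoplasmic reticulum by its escort SCAP and the INSIG proteins when sterols are plentiful, and is carried to the Golgi and cut free when sterols are scarce. In the liver the pathway is coupled to bile acids, because cholesterol is the substrate from which hepatocytes make them. Described here are 28 genes of this pathway, of 47729 genes counted. They were listed by name for their function, but with earlier results of these data known. Of them, 20 encode enzymes of the chain, 4 the sterol-sensing machinery (Srebf2, Scap, Insig1 and Insig2) and 4 proteins of sterol handling (Stard4, Npc1, Mylip and Soat2).

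The 22 RNA-seq libraries came from livers of male C57BL/6 mice, which were wild type (WT) or lacked Slc10a1 (Slc10a1-/-, here KO). Slc10a1 encodes the sodium taurocholate cotransporting polypeptide, the transporter that brings conjugated bile acids from the blood into hepatocytes. At 4 weeks of age there were 3 WT and 3 KO libraries, at 8 weeks 4 WT and 6 KO, and at 20 months 3 WT and 3 KO, each called a liver below. The labels name no other allele, no treatment, and neither the feeding state nor the hour of collection. They do not say how the knockout was made, nor whether libraries numbered alike shared a litter or a day. Replicates are numbered without a statement that each is a mouse of its own, so p-values measure the spread between these libraries, which may in part be technical.

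Libraries of 4 weeks held 5496425 to 6956124 reads in genes, those of 8 weeks 18950112 to 26066897 and those of 20 months 18032355 to 26789350. For Slc10a1 itself, no KO library reached the lowest WT library of the same age, and the log2 fold changes were -1.93, -2.72 and -1.49 in order of age (edgeR adjusted p = 0.0117, 9.00e-05 and 0.821), so transcripts of the gene were still counted in the KO livers. Alb, the hepatocyte gene for serum albumin, stood at 23968 to 148033 CPM (counts scaled to the size of the library) in the 22 libraries. Of the KO libraries of 4 weeks, the one numbered 1 stood apart from the other 2 in many of the sterol genes, and results at that age are given with and without it. The 20-month KO library 1 had 14.72% of its reads outside genes, against 8.52% or less in the other libraries of that age.

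SREBP2 works together with NF-Y, a factor that binds the letters CCAAT, and with other factors at nearby sites. RefSeq promoter entries (GRCm38.p6) were matched by symbol for 22 of the 28 genes, and none for Fdps, Fdft1, Sqle, Stard4, Npc1 and Soat2. In the 250 bases before a start, on either strand, CCAAT stood in 20 of the 22 genes, against 37.5% of 27025 genes in the table. The sterol regulatory element of the letters TCACNCCAC stood in 1 of the 22 (Hmgcs1), against 1.22% of the genes in the table. Its shorter core CACNCCAC, which the longer letters contain, stood in 3 (Hmgcs1, Acat2 and Insig1), against 6.05% of genes. The E-box CACGTG, bound by the lipogenic factor SREBP1 and by clock proteins among others, stood in 5 (Hsd17b7, Sc5d, Dhcr7, Scap and Insig1), against 6.86% of genes. Such a match is a description of letters and no measure of binding in these livers. A gene with several starts counted if any of them held the letters.

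Stretches of 4 promoters are shown because these genes bracket the behaviour described below: Hmgcs1 is the gene with the full element, Mvk has the most copies of CCAAT of these 4 stretches, Lss has the strongest test result of the knockout comparisons, and Insig2 is a sensing gene. They are written 5′ to 3′ on the strand of the gene, with the matched letters in capitals on whichever strand they lie (ATTGG is CCAAT on the opposite strand).
Hmgcs1, chr13:119690104-119690320, + strand: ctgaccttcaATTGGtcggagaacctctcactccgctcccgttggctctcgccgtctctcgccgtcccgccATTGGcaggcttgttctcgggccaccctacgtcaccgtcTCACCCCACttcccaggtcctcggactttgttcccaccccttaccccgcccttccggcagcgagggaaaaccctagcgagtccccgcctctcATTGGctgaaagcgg
Mvk, chr5:114444086-114444268, + strand: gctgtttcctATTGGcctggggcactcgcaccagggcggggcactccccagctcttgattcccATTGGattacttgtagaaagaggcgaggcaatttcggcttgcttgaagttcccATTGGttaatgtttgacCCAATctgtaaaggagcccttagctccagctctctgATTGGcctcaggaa
Lss, chr10:76531533-76531557, + strand: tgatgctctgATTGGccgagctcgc
Insig2, chr1:121332604-121332735, - strand: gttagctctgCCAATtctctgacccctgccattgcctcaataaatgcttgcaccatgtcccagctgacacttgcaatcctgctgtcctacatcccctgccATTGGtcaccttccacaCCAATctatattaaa

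The stretch of Insig2 carries 3 copies of CCAAT and neither form of the element, as does that of Mvk with 5. Insig2 has 3 starts in the table, and the one shown is the only one of them with CCAAT.

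In 4-week-old mice, livers without Slc10a1 carried more RNA of 3 late-pathway enzymes: Lss, which closes the squalene chain into lanosterol, Msmo1, which removes methyl groups from the sterol ring, and Dhcr7, which carries out the last reduction to cholesterol in one branch. Fold changes were 2.82, 6.68 and 2.11. Of 28 genes, 27 passed the filter on low counts (Fdps did not). Among these 27, 3 were called higher and 0 lower by edgeR's quasi-likelihood test with Benjamini-Hochberg adjustment over all genes. Across all 11144 genes tested, 5.17% were called higher and 5.60% lower. A log2 fold change above 0 was seen in 24 of the 27, with a median of 0.73, beside 50.3% and a median of 0.01 over all genes. At an unadjusted p under 0.05 there were 13, each of them higher, beside 3240 of all 11144 genes, 1600 of them higher. The count of 3 rested on single libraries: it was 0 without WT liver 2 or WT liver 3, and 1 (Lss) without WT liver 1, KO liver 2 or KO liver 3. Over all genes, 85 and 65 were called higher without WT liver 2 and WT liver 3, against 576. Without WT liver 1, KO liver 2 and KO liver 3 the all-gene numbers were 321, 522 and 208. Msmo1 and Dhcr7 were each lost on leaving out any one of these 5 livers. The livers were bulk samples, so a change in the number of hepatocytes and a change in RNA per hepatocyte cannot be told apart.

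Lss (chr10:76531588-76557138, GRCm38) stood at 16.6, 20.6 and 19.1 CPM in the 3 WT livers of 4 weeks, and at 36.1, 53.8 and 68.9 CPM in the KO livers. Every KO liver lay above every WT liver. The log2 fold change was 1.50 (SE 0.26, edgeR adjusted p = 0.0124). Lss overlaps an antisense gene over 3.53% of its exon bases, and whether counting used strand is not given in the sources used here.

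Msmo1 (chr8:64718139-64733792) was at 13.3, 34.1 and 27.5 CPM in WT and at 43.6, 318 and 138 CPM in KO livers. The groups did not overlap, and KO liver 1 lay much closer to WT than the other 2. Its log2 fold change was 2.74 (SE 0.65, edgeR adjusted p = 0.0349).

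Dhcr7 (chr7:143823145-143848410) gave 17.5, 19.4 and 15.4 CPM in WT against 24.7, 42.1 and 43.4 CPM in KO livers. Here too no KO liver fell within the WT range, and KO liver 1 was the lowest of the 3. The log2 fold change was 1.08 (SE 0.25, edgeR adjusted p = 0.0330). Groups that did not overlap, with KO higher, were seen in 7 of the 28 genes (Mvk, Ggps1, Lss, Lbr, Msmo1, Dhcr7 and Npc1), beside 16.9% of all genes tested, and in 0 with KO lower, beside 18.5%.

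**Figure D1:**
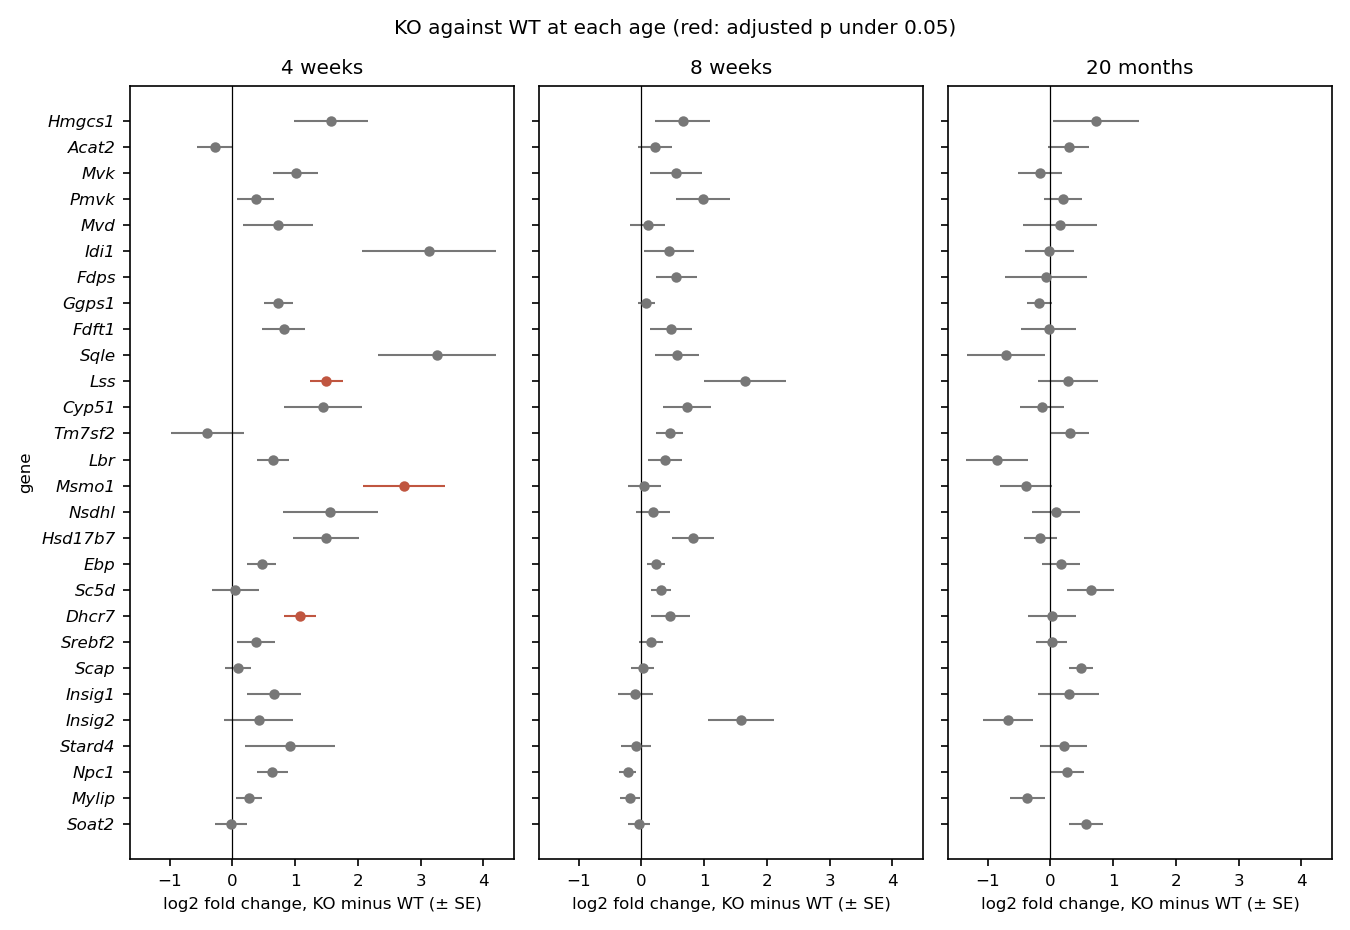
Log2 fold change of KO over WT with its standard error (x axis) for each of the 28 genes (y axis, in pathway order) at 4 weeks, 8 weeks and 20 months, from edgeR; Fdps has no value at 4 weeks. Lss, Msmo1 and Dhcr7 at 4 weeks are in red, having an adjusted p under 0.05; at 8 weeks and 20 months none is.

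The other enzymes had their largest differences in the middle of the chain, with errors too wide to pass. Sqle, squalene epoxidase, which commits squalene to sterols and is a rate-limiting step, had 3.62, 9.07 and 7.55 CPM in WT and 3.83, 118 and 73.1 CPM in KO livers. KO liver 1 lay inside the WT range and the other 2 far above it. Its log2 fold change of 3.26 had an SE of 0.94 (edgeR adjusted p = 0.0583). Idi1, which isomerises isopentenyl diphosphate, followed the same course, with 7.43, 21.0 and 17.4 CPM in WT and 3.66, 253 and 147 CPM in KO livers (log2 fold change 3.14, SE 1.07, edgeR adjusted p = 0.0926). In Idi1, KO liver 1 was below every WT liver.

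At the start of the chain, Hmgcs1, the cytosolic HMG-CoA synthase, had 107, 51.2 and 50.9 CPM in WT and 60.1, 384 and 181 CPM in KO livers (log2 fold change 1.58, SE 0.59, edgeR adjusted p = 0.119). The remaining mevalonate genes had log2 fold changes of 1.01 (Mvk, mevalonate kinase), 0.73 (Mvd), 0.37 (Pmvk) and -0.28 (Acat2, the cytosolic thiolase), none of which passed. Of the isoprenoid and squalene genes, Ggps1, which makes the chain used for protein prenylation, was at 5.90 to 7.39 CPM in WT and 10.9 to 12.2 CPM in KO livers without overlap (log2 fold change 0.73, edgeR adjusted p = 0.0717). Fdft1, squalene synthase, had a log2 fold change of 0.82. Fdps was at 0.381, 0.533 and 1.77 CPM in WT and at 0.871, 3.98 and 5.31 CPM in KO livers, where 3 counts in a library correspond to 0.431 to 0.546 CPM. Reads of Fdps are uncertain, since 26.71% of its exon bases are shared with another gene on the same strand.

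In the steps from lanosterol to cholesterol, 8 of 9 genes had a log2 fold change above 0, and 2 of them passed. Among those that did not, Nsdhl gave 1.56, Hsd17b7 1.49 and Cyp51, the lanosterol demethylase, 1.44. Lbr, a sterol reductase that is also a nuclear envelope protein, gave 0.65. Tm7sf2, which carries out the same reduction, gave -0.40, with KO liver 1 at 7.49 CPM against 62.6 and 38.5 in the other KO livers and 35.4 to 54.1 in WT. Ebp gave 0.47 and Sc5d 0.05.

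The machinery that senses sterols differed less. Srebf2, the gene for SREBP2 itself, was at 23.0, 21.0 and 25.5 CPM in WT and at 16.9, 39.0 and 34.8 CPM in KO livers (log2 fold change 0.38, SE 0.30). Scap had 41.9, 51.7 and 63.1 CPM in WT and 53.8, 55.9 and 56.2 CPM in KO livers (0.09, SE 0.20). Insig1, an SREBP target that feeds back on the pathway, had 54.8, 127 and 158 CPM in WT and 99.0, 184 and 257 CPM in KO livers (0.67, SE 0.43). For each of these genes the groups overlapped and the adjusted p missed 0.05. Insig2, the second retention protein, was at 932, 265 and 250 CPM in WT and 971, 603 and 362 CPM in KO livers (0.42, SE 0.55), with liver 1 of each genotype the highest. Of the sterol-handling genes, Stard4, a cytosolic sterol carrier, gave 0.92, Npc1, the lysosomal cholesterol exporter, 0.64 without overlap, Mylip, a ubiquitin ligase for lipoprotein receptors, 0.27 and Soat2, which esterifies cholesterol, -0.02, and none of these 4 passed.

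KO liver 1 of 4 weeks differed from the other KO livers in most of these genes. It was the lowest of the 3 KO livers in 23 of the 28 genes and the highest in Ggps1, Lbr, Insig2, Npc1 and Soat2. It lay above every WT liver in 9 genes and below every WT liver in 11, whereas KO livers 2 and 3 lay above every WT liver in 23 and 22. Of the 15877 genes kept by the filter over all 22 libraries, 33.1%, 32.4% and 32.2% lay above every WT liver in KO livers 1, 2 and 3. The shares below were 35.5%, 34.0% and 33.4%. For 14 genes, among them Hmgcs1, Idi1, Sqle, Cyp51, Nsdhl and Hsd17b7, KO livers 2 and 3 were above every WT liver and KO liver 1 was not. The shares of all genes with that pattern, or with KO liver 1 the lowest KO liver, were not counted. Without KO liver 1, 16 sterol genes were called higher and 0 lower (beside 9.14% of 11439 genes higher and 8.44% lower), led by Hsd17b7 (log2 fold change 1.97, edgeR adjusted p = 2.15e-04), Sqle (3.83, 2.86e-04), Idi1 (3.73, 6.13e-04) and Lss (1.72, 9.00e-04). That comparison was chosen with the values known.

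A score for each liver, the mean over the 28 genes of log2 CPM minus the mean of WT of its age, was -0.21, 0.09 and 0.11 in WT and -0.24, 1.40 and 1.05 in KO livers of 4 weeks. KO livers 2 and 3 lay well above the WT range. KO liver 1 lay just under it, but inside it with scaling by total counts alone (-0.04, WT -0.19 to 0.12) or with the median over the genes (-0.23, WT -0.27 to 0.28). The squalene and ring closure genes (Fdft1, Sqle and Lss) gave 0.12, 2.40 and 1.97 in the KO livers, and the isoprenoid genes -0.28, 2.38 and 2.25. The sterol-sensing genes gave 0.21, 0.58 and 0.47. Each of these is a description of the chosen genes, with no test.

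**Figure D2:**
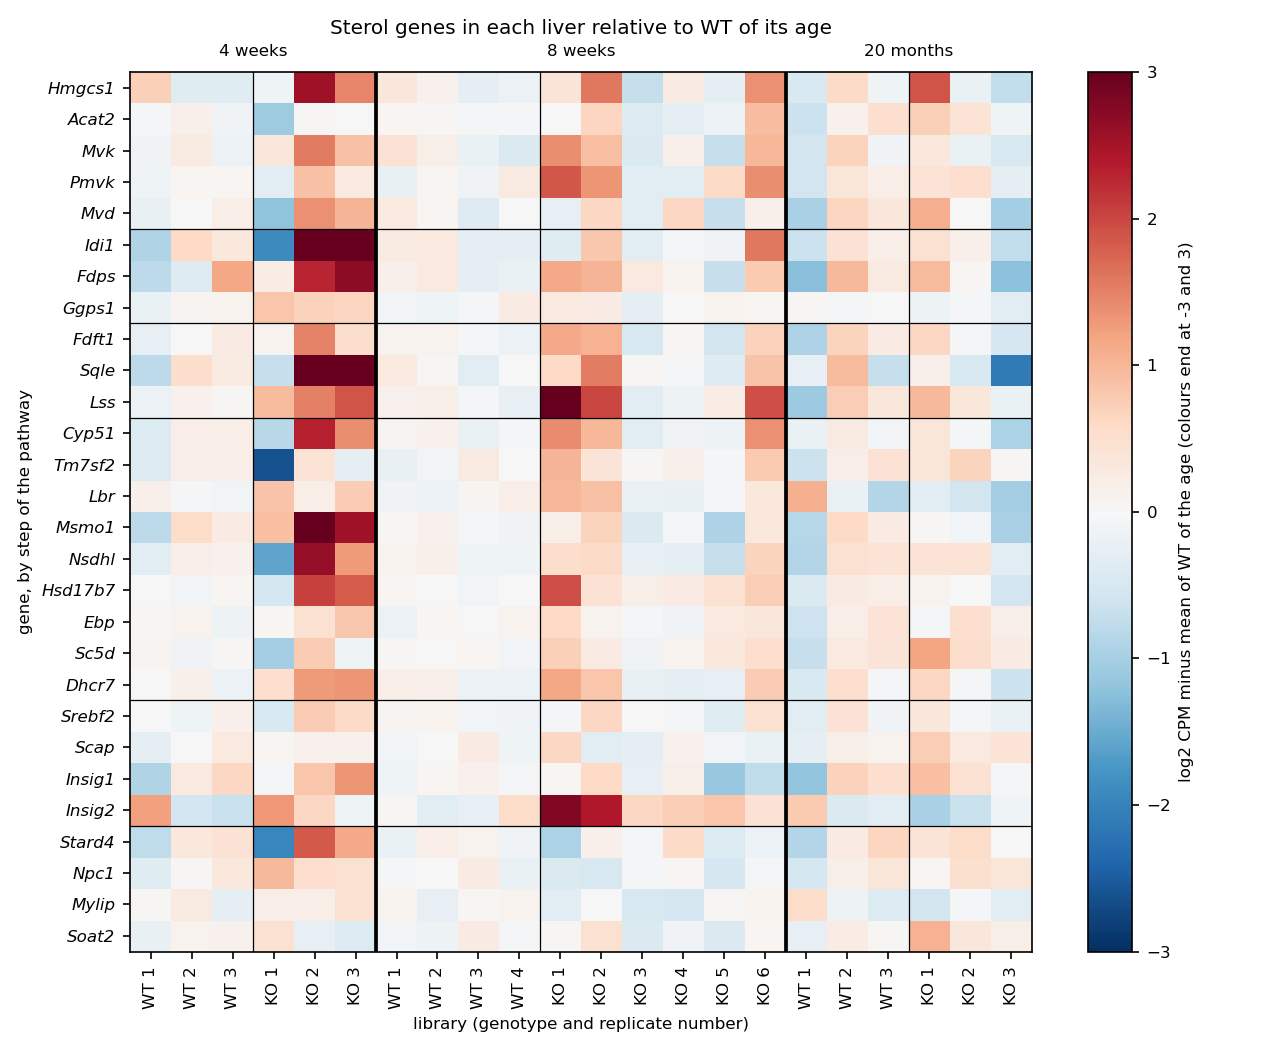
Log2 CPM minus the mean of WT of the same age (colour, ending at -3 and 3) for the 28 genes (rows, in pathway order, lines between steps) in the 22 livers (columns, by age, genotype and replicate number). Red columns run through most enzymes in KO livers 2 and 3 of 4 weeks and in KO livers 1, 2 and 6 of 8 weeks; KO liver 1 of 4 weeks is blue in many of them.

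Other measures moved with the same livers at 4 weeks. Sult2a1, a bile acid and steroid sulfotransferase, was at 8.71 CPM in KO liver 1 and at 1154 and 1817 CPM in KO livers 2 and 3, against 0.178 to 0.964 CPM in WT. Alb was at 28078 CPM in KO liver 1 and at 148033 and 112319 CPM in the others, against 102701 to 120138 in WT. The score of 12 fasting and PPARalpha genes was -2.70 in KO liver 1, against -0.15 and -0.35 in the other KO livers and -0.37 to 0.43 in WT. Arntl, a core gene of the circadian clock that peaks when its target Dbp is low, was at 47.6 CPM in KO liver 1 and at 1.68 and 11.3 CPM in the others, and at 40.9, 5.16 and 3.05 CPM in WT. Their part in the differences between these livers was not tested.

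Markers of other liver cells moved as well at 4 weeks. Macrophage markers were called higher in 1 (Marco) and lower in 3 of 12 tested, endothelial markers in 0 and 3 of 10, stellate markers in 1 and 2 of 10, and erythroid markers in 0 and 4 of 5. Over all genes tested, 5.17% were called higher and 5.60% lower. Summed as a score, the erythroid list was -2.20 to -1.17 in the 3 KO livers against -0.11 to 0.10 in WT, and the macrophage list -0.71 to -0.31 against -0.13 to 0.11. Only 2 of 10 cholangiocyte and 1 of 10 lymphocyte markers had enough counts to be tested, and 0 were called. Hepatocyte markers were called higher in 1 (Cps1) and lower in 0 of 10, with a score of -0.27, 0.39 and 0.35 in KO against -0.10 to 0.10 in WT. Their part in the sterol gene differences was not tested.

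Neighbouring pathways gave few calls at 4 weeks, beside 5.17% of all genes called higher and 5.60% lower. Of 12 genes of SREBP processing and NF-Y, 0 were called in either direction, with a median log2 fold change of 0.04. An unadjusted p under 0.05 was seen in 3 of them, beside 3240 of all 11144 genes. Of 9 further SREBP2 targets, 1 was called higher, Acss2, which makes acetyl-CoA from acetate (49.5, 48.7 and 41.9 CPM in WT, 76.1, 78.8 and 67.3 in KO, log2 fold change 0.67, SE 0.18, edgeR adjusted p = 0.0468), and the median was -0.26. Of 12 genes of LXR and its targets, the opposite arm of sterol control, 1 was called higher (Lpl, lipoprotein lipase, 1.92, edgeR adjusted p = 0.0186) and the median was -0.07. Srebf1, the gene for the lipogenic factor SREBP1, did not pass, at 6.28, 23.8 and 23.9 CPM in WT and 30.8, 17.4 and 8.19 CPM in KO livers.

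Genes that use products of the chain were mixed, beside the same 5.17% of all genes called higher and 5.60% lower. Among 11 genes of isoprenoid branches, Pdss1, which builds the side chain of ubiquinone, was called higher (1.16, edgeR adjusted p = 0.0445). Cyp7b1, which hydroxylates oxysterols on the alternative route to bile acids, was called lower among 12 genes of bile acid synthesis (fell by 3.42 on the log2 scale, edgeR adjusted p = 1.50e-04) and Akr1d1, which reduces the sterol ring of bile acid intermediates, higher (1.44, edgeR adjusted p = 0.0233). Cyp7a1, the rate-limiting enzyme of the classical pathway, was not called, at 71.6, 56.6 and 23.3 CPM in WT and 52.4, 52.0 and 96.1 CPM in KO livers. Of 11 genes of cholesterol transport and storage, 0 were called (1 at an unadjusted p under 0.05, beside 3240 of all 11144 genes).

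At 8 weeks no sterol gene passed the test, and the 6 KO livers divided. By edgeR 0 of 28 were called higher or lower, beside 0.00689% and 0.0207% of 14522 genes, so the test called almost nothing at this age. DESeq2 and limma with quality weights also called 0. At an unadjusted p under 0.05 there were 4 by edgeR (Pmvk, Lss, Hsd17b7 and Insig2, each higher), 4 by DESeq2 and 5 by limma. Over all 14522 genes, edgeR gave 1517 at that p, 967 of them higher. The all-gene numbers of DESeq2 and limma at that p were not counted. The log2 fold change was above 0 in 23 of 28 with a median of 0.35, beside 52.6% and a median of 0.02 over all genes.

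In KO livers 1, 2 and 6, 19, 23 and 19 of the 28 genes lay above every WT liver of 8 weeks. In KO livers 3, 4 and 5 the numbers were 2, 6 and 6, and 17, 6 and 14 genes lay below every WT liver. Of the 15877 genes kept by the filter over all 22 libraries, 38.5%, 32.3% and 27.6% lay above every WT liver in KO livers 1, 2 and 6. In KO livers 3, 4 and 5 that share was 23.9%, 33.1% and 29.6%. The share below every WT liver was 34.0% or more in the former and 21.5%, 20.6% and 32.4% in the latter. The score was -0.06 to 0.05 in the 4 WT livers and 0.69, 0.72, -0.20, 0.02, -0.21 and 0.59 in KO livers 1 to 6. For 11 genes, namely Hmgcs1, Mvk, Fdps, Fdft1, Sqle, Cyp51, Tm7sf2, Lbr, Msmo1, Nsdhl and Dhcr7, KO livers 1, 2 and 6 and no others were above the WT range. The share of all genes with that pattern was not counted. The livers are ordered here by their values, and no test between them was made.

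Lss showed the division most widely, with 42.9, 44.0, 37.3 and 33.2 CPM in WT and 315, 157, 31.6, 35.2, 45.8 and 150 CPM in KO livers 1 to 6. Its log2 fold change of 1.65 had an SE of 0.65 (edgeR adjusted p = 0.474). Dhcr7 was at 73.2 to 96.3 CPM in WT and at 186, 148, 71.6, 69.1, 70.3 and 141 CPM in the KO livers (0.46, SE 0.31, edgeR adjusted p = 0.557). Msmo1 was at 121 to 142 CPM in WT and at 147, 205, 95.4, 126, 68.2 and 161 CPM in KO (0.05, SE 0.26, edgeR adjusted p = 0.946). Hsd17b7, a reductase of the late pathway, was the 1 gene whose groups did not overlap, beside 1.28% of all genes with KO higher and 1.06% with KO lower. It stood at 71.8 to 79.0 CPM in WT and 287, 102, 84.7, 90.5, 104 and 127 CPM in KO (0.82, SE 0.33, edgeR adjusted p = 0.474).

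The sensing genes gave mixed values at 8 weeks. Insig2 was at 86.3, 65.5, 69.9 and 123 CPM in WT and at 571, 440, 128, 140, 149 and 113 CPM in KO, high in KO livers 1 and 2 but not in KO liver 6 (log2 fold change 1.59, SE 0.52, edgeR adjusted p = 0.474). Insig1 was at 166 to 197 CPM in WT and 186, 273, 153, 205, 82.8 and 108 CPM in KO, so KO liver 6 fell under the WT range in Insig1 while 18 of the 20 enzymes lay above it. Srebf2 was at 41.1 to 48.2 CPM in WT and at 43.2, 68.7, 43.8, 42.4, 34.6 and 61.2 CPM in KO, and Scap at 97.6 to 126 CPM in WT and 164, 84.9, 89.2, 116, 101 and 92.7 CPM in KO. The 4 sterol-handling genes had log2 fold changes of -0.22 to -0.04.

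The same KO livers differed in other genes. Sult2a1 was at 319, 152, 0.206, 0.252, 7.95 and 418 CPM in KO livers 1 to 6, and at most 0.234 CPM in WT. Mup20, a male-biased urinary protein gene, was at 5.43, 4.84, 3321, 3512, 68.7 and 4.15 CPM, against 1007 to 2248 in WT, and Cyp7b1 at 7.85, 4.84, 673, 853, 7.30 and 8.42 CPM, against 263 to 527 in WT. High sterol genes stood with high Sult2a1 and low Mup20 in KO livers 1, 2 and 6. KO livers 3 and 4 had neither, with Mup20 above the WT range. KO liver 5 had low Mup20 and Cyp7b1, with 6 of the 28 sterol genes above and 14 below every WT liver. At 4 weeks Mup20 was called lower in the KO livers as a group (log2 fold change -6.08). The sterol score of KO liver 1 of that age was -0.24.

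Cyp7a1 was at 23.0, 31.8, 403, 391, 503 and 198 CPM in KO livers 1 to 6 and at 486 to 999 CPM in WT, lowest in the 3 livers with high sterol genes. Arntl was at 45.0 and 43.5 CPM in KO livers 1 and 2 and at 1.76 to 4.75 CPM in KO livers 3 to 6, against 1.37 to 2.53 in WT, while Dbp was at 4.32 and 1.14 CPM in KO livers 1 and 2 against 26.7 to 66.9 in KO livers 3 to 6. The erythroid score was 1.63, 1.77 and 1.77 in KO livers 1, 2 and 6 and -1.13 to 0.16 in the others. The macrophage score was 0.98, 0.85, -0.23, -0.29, 0.72 and 0.82. For the 9 further SREBP2 targets the score was -0.26, -0.17, -0.05, -0.05, -0.06 and -0.01, against -0.13 to 0.13 in WT. For LXR and its targets it was 0.81, 0.63, -0.25, -0.02, 0.32 and 0.68, against -0.16 to 0.12 in WT. For hepatocyte markers it was 0.70, 0.43, -0.12, -0.28, 0.31 and 0.23, against -0.12 to 0.14 in WT. The part of these in the division of the sterol genes was not tested.

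**Figure D3:**
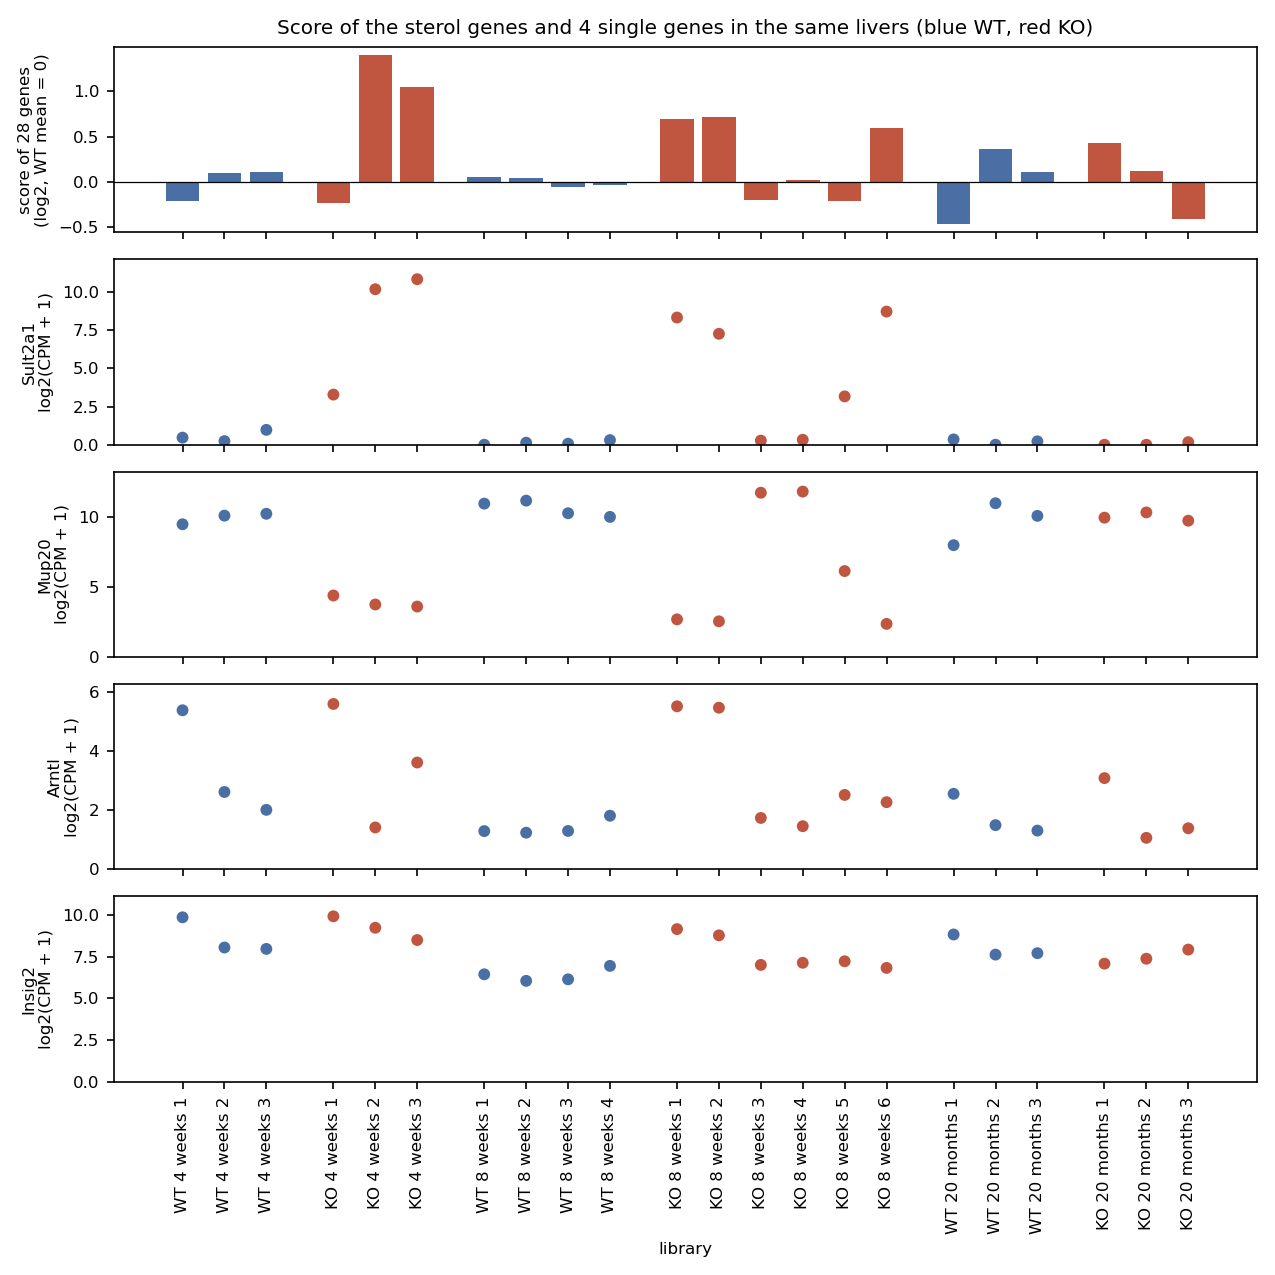
Score of the 28 sterol genes (top, bars, log2 with the WT mean of each age at 0) and log2(CPM + 1) of Sult2a1, Mup20, Arntl and Insig2 (points) in each of the 22 livers (x axis; blue WT, red KO). KO livers 2 and 3 of 4 weeks and 1, 2 and 6 of 8 weeks have Sult2a1 at 152 CPM or more, and the remaining KO livers have it at 8.71 CPM or less. At 4 weeks liver 1 of each genotype has the highest Insig2 and the highest Arntl, while KO liver 2 has high Insig2 with low Arntl. At 8 weeks KO livers 1 and 2, and no WT liver, are high in both.

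At 20 months the KO and WT livers overlapped in 27 of the 28 genes. By edgeR, 0 of 28 were called, beside 0% of 13966 genes tested in either direction, and DESeq2 and limma with quality weights also called 0 of the 28. At an unadjusted p under 0.05 there was 1 by edgeR (Scap), 1 by DESeq2 and 7 by limma. Over all 13966 genes, edgeR gave 772 at that p, and the all-gene numbers of DESeq2 and limma were not counted. The log2 fold changes were above 0 in 16 of 28 with a median of 0.06, beside 49.5% and -0.00 over all genes. That number above 0 was 7 without WT liver 1, 10 without KO liver 1, 21 without WT liver 2, 22 without KO liver 3 and 8 by limma. These livers varied within each genotype: the score was -0.47, 0.36 and 0.11 in WT and 0.43, 0.12 and -0.41 in KO livers 1 to 3. WT liver 1 was the lowest WT liver in 23 of 28 genes and KO liver 3 the lowest KO liver in 23, while KO liver 1, the one with more reads outside genes, was the highest KO liver in 19. Shares of all genes with these orders of livers were not counted.

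Scap, the SREBP escort, was the gene whose groups did not overlap, at 35.4, 48.0 and 45.8 CPM in WT and 70.7, 52.6 and 57.4 CPM in KO (log2 fold change 0.49, SE 0.19, edgeR adjusted p = 0.821), beside 5.45% of all genes with KO higher and 4.83% with KO lower. Its exons share 13.23% of their bases with a gene on the opposite strand. Srebf2 was at 25.6, 44.1 and 30.4 CPM in WT and 40.9, 32.0 and 28.2 CPM in KO. Insig1 was at 104, 382 and 340 CPM in WT and 445, 329 and 232 CPM in KO, and Insig2 at 456, 197 and 209 CPM in WT and 135, 166 and 243 CPM in KO, so that WT liver 1 had the lowest Insig1 and the highest Insig2. That liver also had Arntl at 4.90 CPM and Dbp at 8.85 CPM, against 1.83 and 1.49, and 50.3 and 63.9 CPM in the other WT livers.

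The genes called at 4 weeks did not pass here. Lss was at 17.7, 62.8 and 47.3 CPM in WT and 73.6, 47.9 and 32.7 CPM in KO (0.28, SE 0.48), Msmo1 at 103, 283 and 223 CPM in WT and 191, 177 and 94.2 CPM in KO (-0.39, SE 0.42), and Dhcr7 at 69.5, 136 and 92.3 CPM in WT and 148, 93.0 and 61.2 CPM in KO (0.03, SE 0.38). The groups overlapped in each. Sult2a1 was at 0.272 CPM or less in all 6 livers of this age, and Mup20 at 249 to 1976 CPM in WT and 835 to 1258 in KO. The other-cell score of macrophages ran from -1.04 to 0.78 in WT and from -1.26 to -0.03 in KO.

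**Figure D4:**
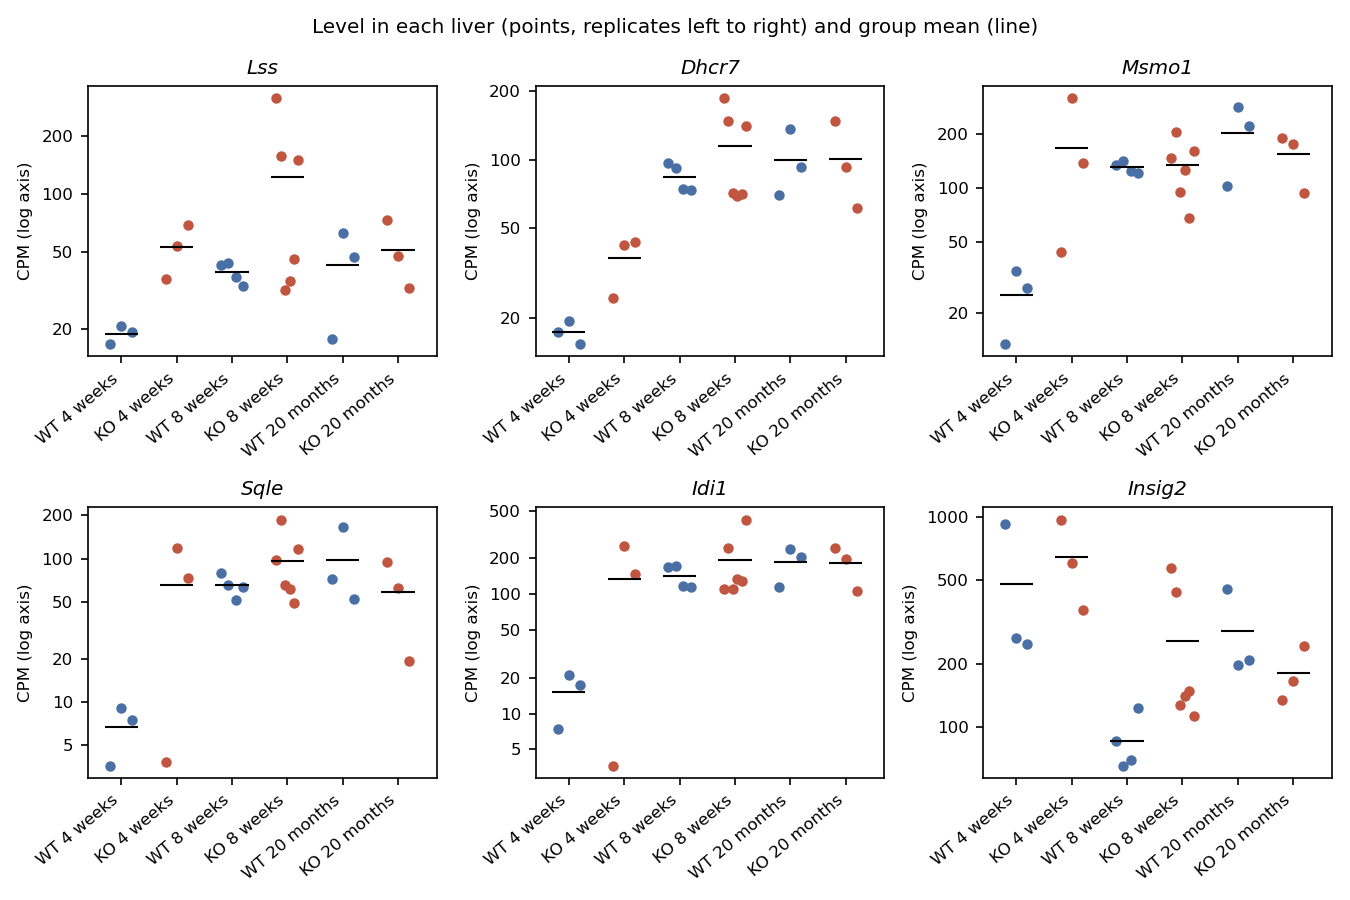
CPM (log axis) of Lss, Dhcr7, Msmo1, Sqle, Idi1 and Insig2 in every liver (points, blue WT, red KO, replicates from left to right) with the group mean (line), by genotype and age. At 4 weeks KO lies above WT without overlap in Lss, Dhcr7 and Msmo1; in Sqle and Idi1 KO liver 1 lies with or below WT; at 20 months the genotypes overlap in each of these 6 genes.

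Whether the effect of the knockout differed with age was tested in a single edgeR fit of the 22 libraries. Ages differ in more than age here, since file names mark the 4-week libraries as read pairs and the others as single reads. Each effect is a difference between genotypes within an age. The libraries of an age were not all alike, with 14.72% of reads outside genes in KO liver 1 of 20 months against 8.52% or less in the others. Jointly over the 3 ages, 1 of 28 genes was called, Msmo1 (edgeR adjusted p = 0.0489), beside 1.62% of 15877 genes, and 7 had an unadjusted p under 0.05. How many of all genes reached that unadjusted p was not counted, neither here nor for the pairs of ages below. Within the single ages the log2 fold changes of Msmo1 were, as given above, 2.74, 0.05 and -0.39 from the youngest to the oldest. The call for Msmo1 lay close to the threshold and was lost on leaving out any one of 16 libraries.

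Between 4 weeks and 20 months, the effect was lower at 20 months for 3 genes, beside 2.52% of all genes called in that direction and 4.52% in either. Sqle went from 3.26 to -0.71 on the log2 scale (difference -3.98, SE 1.09, edgeR adjusted p = 0.0428), with WT at 72.1, 166 and 52.6 CPM and KO at 94.6, 62.6 and 19.5 CPM at 20 months. Msmo1 differed by -3.13 (SE 0.75, edgeR adjusted p = 0.0249). Ggps1 differed by -0.91 (SE 0.25, edgeR adjusted p = 0.0444), its groups being at 6.51 to 6.87 CPM in WT and 5.25 to 6.53 CPM in KO at 20 months. Between 4 and 8 weeks 0 genes were called, beside 0.170% of all genes lower and 0.328% in either direction. The nearest was Msmo1 (-2.70, SE 0.67, edgeR adjusted p = 0.0720), and 5 had an unadjusted p under 0.05. Between 8 weeks and 20 months 0 of 28 were called, beside 0% of all genes in either direction, with 2 at an unadjusted p under 0.05.

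In WT livers, most of the chain stood higher at 8 weeks than at 4 weeks. By edgeR 20 of 28 genes were called higher and 2 lower, beside 27.5% and 25.7% of 14003 genes, and the median log2 fold change was 0.97 beside 0.04 over all genes. File names mark the 4-week libraries as read pairs and give the 8-week libraries another name and number than those of both other ages, so age and library set cannot be told apart in comparisons of WT livers. Other lists differed between the same livers: of fasting and PPARalpha genes 0 were called higher and 11 lower of 12 (median -2.75), of macrophage markers 0 and 8 of 12 (-0.77), of lymphocyte markers 0 and 5 of 7 (-1.22), of hepatocyte markers 1 and 6 of 10 (-0.48), and of stellate markers 5 and 2 of 10 (0.72). Further SREBP2 targets gave 6 and 1 of 9 (0.62). SREBP processing and NF-Y genes gave 5 and 1 of 12 (0.18), and endothelial markers 5 and 2 of 10 (0.35). Their part in the sterol gene differences was not tested. Fdps aside, the largest log2 fold changes were in Sqle (3.28, SE 0.26), Idi1 (3.24, SE 0.31), Nsdhl (2.62, SE 0.15), Msmo1 (2.40, SE 0.24), Dhcr7 (2.29, SE 0.15) and Cyp51 (2.21, SE 0.16), each with an edgeR adjusted p of 2.64e-05 or less. Fdps was called as well, at 6.04 to 9.03 CPM in the 8-week livers. The values of WT livers at 8 weeks were tight: Sqle lay between 51.5 and 79.2 CPM and Msmo1 between 121 and 142.

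The 2 genes called lower from 4 to 8 weeks in WT were Insig2 (-2.47, SE 0.44, edgeR adjusted p = 0.00101) and Soat2 (-0.90, SE 0.12, edgeR adjusted p = 1.97e-04). Srebf2 was higher by 0.96 (SE 0.11) and Scap by 1.05 (SE 0.14). The 6 that did not pass were Pmvk, Mvd, Ggps1, Ebp, Insig1 and Mylip. In the 4-week set, KO livers 2 and 3 had Sqle, Idi1 and Msmo1 at 73.1 to 118, 147 to 253 and 138 to 318 CPM, beside 51.5 to 79.2, 114 to 172 and 121 to 142 CPM in WT livers of 8 weeks; these levels come from different sets and were not compared by a test.

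From 8 weeks to 20 months in WT livers, 8 of 28 were called higher and 2 lower by edgeR, beside 27.7% and 26.8% of 14322 genes, with a median of 0.38 beside 0.07. Between these livers macrophage markers were called higher in 7 and lower in 0 of 12, lymphocyte markers in 5 and 0 of 10, endothelial markers in 1 and 7 of 10 and clock genes in 0 and 7 of 13, and their part was not tested. Those higher were Insig2 (1.70), Mvd (1.68), Fdps (1.45), Pmvk (1.39), Ebp (0.91), Soat2 (0.71), Hsd17b7 (0.57) and Cyp51 (0.42), and those lower Scap (-1.36) and Npc1 (-0.98). Insig2 and Soat2 were thus lower at 8 weeks than at both other ages. The count of higher genes changed with single livers. Without WT liver 1 of 20 months 15 were higher and 5 lower, beside 28.4% and 30% of all genes. Without WT liver 2 of 20 months or WT liver 3 of 8 weeks 5 were higher, beside 23.6% and 21.9% of all genes.

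Per kilobase of exon, the levels spread widely within the pathway. In WT livers of 8 weeks the highest means were those of Sc5d, a late desaturase (66.0 CPM per kb), Ebp, the sterol isomerase (59.7), and Insig1 (58.7), and the lowest those of Ggps1 (1.74), Fdps (1.76) and Mvd (2.62). At 4 weeks Insig2 ranked highest in WT, at 139 CPM per kb, followed by Ebp at 69.5 and Insig1 at 36.6, and at 20 months Ebp, at 116, followed by Insig1 at 89.1. Ebp and Insig1 were thus among the top 3 in WT of every age. In no group of livers was Ggps1 above rank 25 of 28.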

How the data were processed

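Poly(A) RNA of whole livers was sequenced in 22 libraries; each library has 1 deposited table of raw counts by Ensembl gene. Per the submitters' processing notes the authors used HISAT2 2.0.4, HTSeq 0.6.1p1 and GRCm38; the annotation release, strand setting and filters are not given in the sources used here. File names mark the 4-week libraries as paired and those of the other ages as single reads, with another name and number for the 8-week libraries. Symbols were matched by identifier for 47224 of 47729 genes, with positions and lengths from GENCODE M21. The 5 summary lines were left out of totals.

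Counts were tested in R 4.3.3 with edgeR 4.0.16 (filterByExpr, TMM, quasi-likelihood F-test, 2-sided) in a fit of the 2 groups compared, with Benjamini-Hochberg adjustment over all genes and a threshold of 0.05. An SE is the log2 fold change divided by the square root of F. CPM uses TMM factors of the 22 libraries, and log2 CPM a prior count of 2. The limit that 3 counts allow was 0.112 to 0.546 CPM, for counting error only. No libraries of a group looked repeated (smallest chi-square per degree of freedom 8.34). Simulated counts with known changes were used to test the fits. Their spread between libraries was set smaller than that of the real libraries, so error rates in these data were not measured. Alternatives were TMM against DESeq2 size factors, no filter, DESeq2 1.42.0, limma 3.58.1 with quality weights, 1 fit of 22 libraries, a replicate block and leaving out each library.

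Members, lists and alternatives were chosen with earlier results of these data known. All 28 genes are accounted for in each comparison; values per library are given for genes that passed, for the sensing genes and for genes beside them, and from each neighbouring list up to 3 genes that passed. Values per library of other members and of Alb, the names Marco and Cps1, and the comparison without a library, were chosen after values were seen. The lipogenic list is not reported here. Proteins of related members were to be compared and were not analysed here.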

Additional observations from a re-analysis of the deposited data

Results flagged for a closer look

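Among 58 groups of 4 or 6 livers checked (each sterol gene and the score at 8 weeks, by genotype), 1 value lay far from the rest of its group: Hsd17b7 in KO liver 1 of 8 weeks, at 287 CPM, with the next highest KO liver at 127. The gap was 0.670 of the range of log2 values, past the 95% critical value for 6 livers, and chance alone gives about 1 in 20 such groups.

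The effect of the knockout differed between ages for Msmo1 in the joint test of 3 ages (edgeR adjusted p = 0.0489). Between 4 weeks and 20 months it differed for Ggps1 (-0.91 on the log2 scale), Sqle (-3.98) and Msmo1 (-3.13), each smaller at 20 months. The part of KO liver 1 of 4 weeks, of the library sets and of the other genes that moved with these livers was not tested for these differences.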

How the results depend on the processing

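At 4 weeks 3 sterol genes were called higher in KO by edgeR. The count was 12 with no filter on low counts, 6 by DESeq2, 11 by limma with quality weights, 5 in 1 fit of all libraries, and 0 to 16 on leaving out single libraries. Over all genes, 4.86% were called higher with no filter, 6.1% by DESeq2, 11.6% by limma and 5.76% in 1 fit, against 5.17%. The count of sterol genes was 16 without KO liver 1 (9.14% of all genes higher). It was 1 without KO liver 2, KO liver 3 or WT liver 1 (4.55%, 1.81% and 2.81% of all genes). Without WT liver 2 or WT liver 3 it was 0 (0.744% and 0.569% of all genes). Lss was called in 9 and Msmo1 in 7 of the 12 alternatives, and Dhcr7 in 5. At 8 weeks and at 20 months 0 were called in either direction under every alternative run. The joint test between ages gave 0 to 3 called genes on leaving out single libraries, against 1. For WT at 20 months against 8 weeks, limma called 18 higher and 7 lower, beside 35.4% and 34.2% of all genes. DESeq2 called 8 higher and 4 lower, beside 21.9% and 22%, and edgeR 8 and 2, beside 27.7% and 26.8%. Leaving out single libraries gave 5 to 15 higher and 2 to 5 lower, beside 21.8% to 29.7% and 22.9% to 30% of all genes. The cause of these shifts was not tested. Genes called in KO against WT at 4 weeks or in the WT comparisons kept their direction under each alternative that tested them. Directions of single genes at 8 weeks and 20 months were not followed across alternatives, but the number with a log2 fold change above 0 ran from 21 to 25 of 28 at 8 weeks and from 7 to 22 at 20 months. With scaling by total counts alone, the score of KO liver 1 of 8 weeks was 0.42 (0.69 in the report) and that of KO liver 1 of 20 months 0.60 (0.43); the mean KO score at each age moved by less than the spread between KO livers.

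Same-numbered WT and KO libraries did not deviate together at every age (correlations of -0.04 to 0.03 in the 4-week set, -0.29 to 0.07 in the 8-week set, and between 0.07 and 0.40 at 20 months). At 20 months, libraries numbered differently gave -0.44 to 0.24. They were not taken as pairs, but so few libraries cannot show whether those numbered alike shared a litter or a day. With a replicate block 2 sterol genes were called higher at 4 weeks (242 genes higher and 295 lower over all genes, against 576 and 624) and 0 at the other ages. Depth at 4 weeks left Fdps untested.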
